A study of Castanea mollissima with 2 samples.

Results

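In chestnut catkins, 58 gene entries differed less than 2-fold in reads between normal and mutant catkins while the mean length of their transcripts differed at least 1.41-fold. These entries were chosen by 5 conditions on the deposited tables. Each lists 2 or more transcripts, has at least 100 expected counts in each library, differs at least 1.41-fold in length, and differs less than 2-fold in unscaled count. The last condition drops entries among the 100 highest TPM values of either library, which removed none. The 58 came from 92000 entries in all, of which 9226 list 2 or more transcripts and 5161 also reach the count minimum. These 5161 are called the tested entries. Lengths and counts of both libraries made the choice, so the values below are a description and no test was made on them.

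Chinese chestnut (Castanea mollissima) is a nut tree whose catkins are long flower spikes that carry mostly male flowers. The study sequenced normal catkins of the cultivar Yanshanhong and, from the cultivar Heishanzhai7, mutant catkins that are shorter, with 1 library for each. They are called normal and mutant catkins here. The labels give catkins as the tissue and recessive as the genotype of both, give no age, stage or treatment, and name berries in the extraction protocol. Replicate error could not be measured with 1 library for each, and catkin type and cultivar cannot be told apart.

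Many plant genes give rise to several transcripts, through alternative splicing, alternative start sites and alternative ends. A gene can therefore change which transcript it uses while its total number of reads stays much the same, and a longer or shorter transcript can carry a different coding region or different untranslated ends. Sequences that are grouped under 1 entry can also be alleles, close copies or partial sequences, and the deposited tables do not separate these. The identifiers are paired with no gene name, sequence or position in the sources used here, so no function is given for any entry.

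For an entry with several transcripts, the length in the tables is read here as an average weighted by the abundance of each transcript. TPM, an abundance per transcript molecule that adds up to nearly the same total in both libraries, was set beside effective length and count. TPM multiplied by effective length and divided by count gave the same constant for entries with several transcripts as for those with 1. In the normal library its median was 57.9 for entries with 1 transcript and 57.9 for those with 2 or more, over entries of at least 5 TPM. In the mutant library the medians were 69.32 and 69.31, and the 58 entries lay between 57.78 and 57.98 in normal and between 69.25 and 69.39 in mutant catkins. If the TPM of an entry was computed from its count and effective length, this constant would hold for any definition of length. It therefore cannot show by itself how the length was weighted. With a weighted average, a change in an entry's length between the libraries is a change in the proportions in which its transcripts were estimated.

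The lengths of most tested entries hardly differed. Their median difference was 1.017-fold, 84.1% differed by less than 1.1-fold and 93.2% by less than 1.2-fold, and the 99th percentile was 1.498-fold. A difference of at least 1.41-fold was found in 82 entries, or 1.59% of the tested entries. Of these, 53 entries (1.03%) were longer and 29 entries (0.562%) shorter in mutant catkins. Among the 82, 24 differed 2-fold or more in count, 15 of them longer and 9 shorter, which leaves the 58 (1.12%). Because the choice used these contrasts, the percentages describe the background only.

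**Figure D1:**
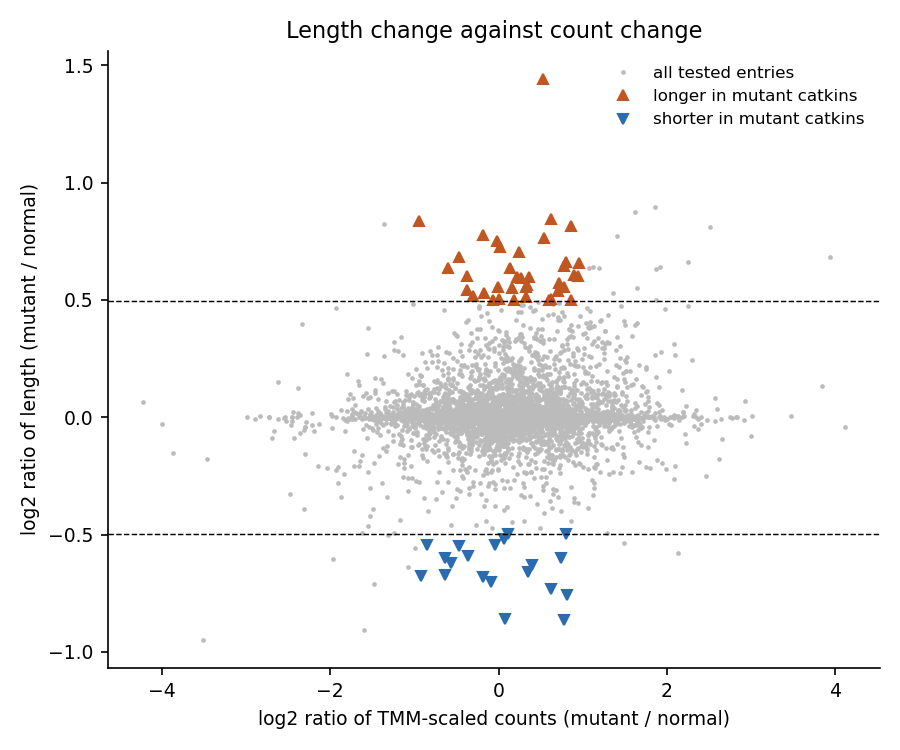
Each point is 1 of the 5161 tested entries, with the log2 ratio (mutant over normal) of TMM-scaled counts on the horizontal axis and of deposited length on the vertical axis; dashed lines mark 1.41-fold, upward triangles the 38 entries longer and downward triangles the 20 entries shorter in mutant catkins. Most grey points lie close to a length ratio of 0 at any count ratio, and 1 entry stands apart at 1.44.

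Of the 58 entries, 38 had longer and 20 had shorter transcripts on average in mutant catkins. Over all 5161 tested entries, with differences of any size, 2775 were longer, 2376 shorter and 10 equal in length. The 38 longer entries had a median length of 1337 bases in normal and 2011 bases in mutant catkins. The 20 shorter ones had medians of 2232 and 1473 bases. The median gap between the libraries was 700 bases for the 58, with a range from 242 to 3664 bases. If length is an average over transcripts, at least 1 transcript of an entry must be as long as the longer value. At least 1 must then be as short as the shorter value. The gap is therefore the smallest possible difference between the longest and the shortest transcript of the entry.

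**Figure D2:**
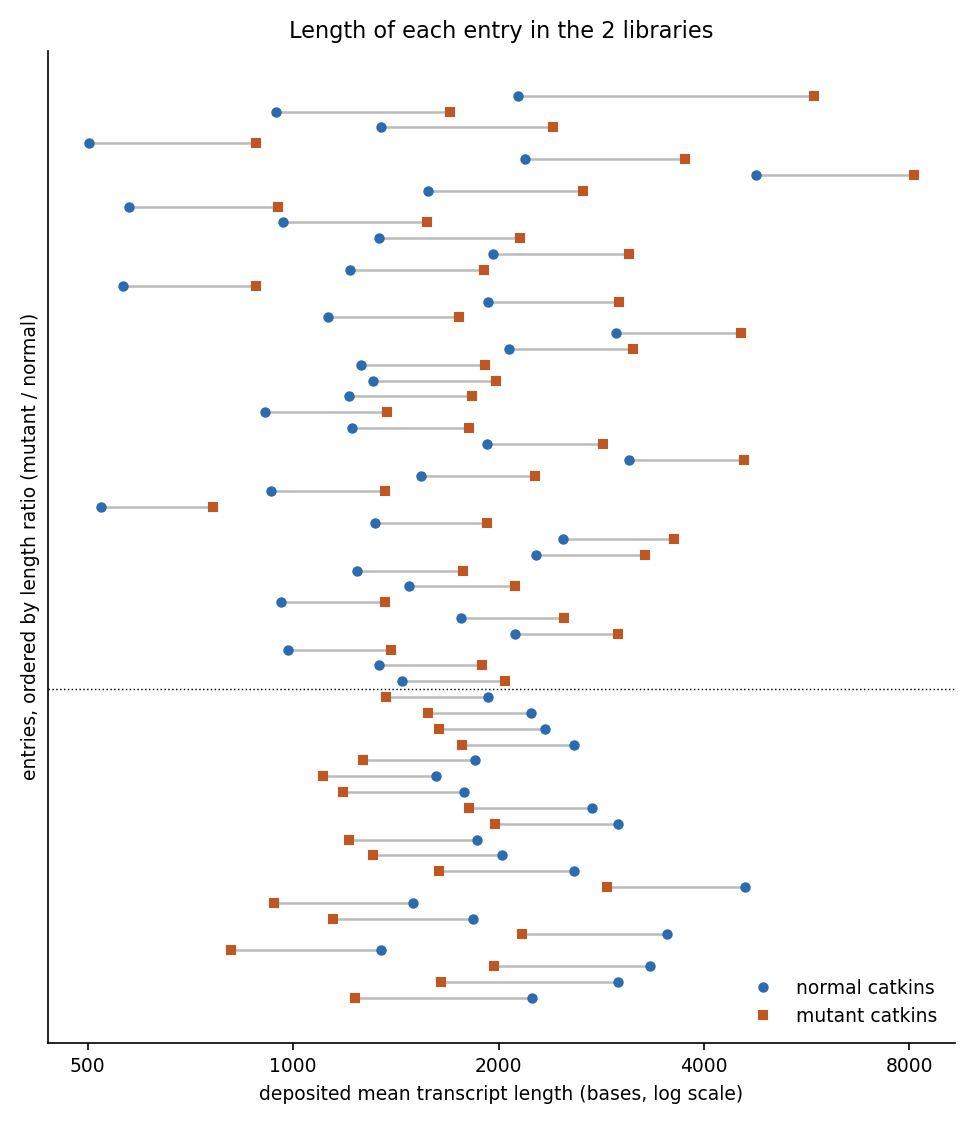
Deposited length in bases (log scale) of each of the 58 entries in normal catkins (circles) and mutant catkins (squares), joined by a line and ordered by length ratio, with a dotted line between the 38 longer and the 20 shorter in mutant catkins. The entry at the top runs from 2133 to 5796 bases, whereas 23 of the 58 lines span less than 1.5-fold.

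The largest change of length was that of c53411.graph_c0, with 3 transcripts. Its length was 2133 bases in normal and 5796 bases in mutant catkins, a ratio of 2.718. It had 1320 expected counts in normal and 1890 in mutant catkins, and 37.19 and 22.93 TPM. By count this entry was higher in mutant catkins, 1.439-fold after TMM scaling (trimmed mean of M values, which sets the libraries to a common level). The 95% exact conditional interval of that ratio was 1.341 to 1.545 and covers counting error only, as do all such intervals here. By TPM the same entry was 1.622-fold lower, since TPM divides the reads of an entry by its length. It was the only entry of the 58 with a length ratio above 2.

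The entry second in this order, c49522.graph_c0, has 4 transcripts and lengths of 944.65 bases in normal and 1698 bases in mutant catkins, 1.797-fold. Its counts were 131 and 201, a scaled ratio of 1.54 (interval 1.231 to 1.937), and its abundance was 8.75 and 8.63 TPM. The count and the length were both higher in mutant catkins, and the TPM ratio was 0.986.

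In the opposite direction, c56039.graph_c2, with 9 transcripts, had the lowest length ratio. Its length was 2237 bases in normal and 1231 bases in mutant catkins, 1.817-fold shorter. It had 223 counts in normal and 380 in mutant catkins, a scaled ratio of 1.711 (interval 1.448 to 2.03). Its abundance was 5.98 TPM in normal and 22.97 TPM in mutant catkins, so the 1.711-fold difference by count was 3.841-fold by TPM. The TPM value holds, besides the length, the general shift of TPM ratios above scaled count ratios. That shift had a median of 0.26 on the log2 scale over all tested entries.

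A plainer case was c54131.graph_c0, with 3 transcripts, whose counts of 129 and 135.01 differed by less than their counting error. The scaled ratio was 1.052, with an interval of 0.82 to 1.349. Its length was 2988 bases in normal and 1648 bases in mutant catkins, 1.813-fold shorter, and its abundance was 2.57 and 5.98 TPM. By TPM alone this entry would be read as 2.327-fold higher in mutant catkins. That value also holds the general shift of TPM ratios above scaled count ratios, a median of 0.26 on the log2 scale over all tested entries.

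The entries with the most counts are described by their lengths. An entry with 6 transcripts had 17420 counts in normal and 11137 in mutant catkins, and its length was 4589 and 2880 bases. Its counts were lower in mutant catkins, at a scaled ratio of 0.643 (interval 0.627 to 0.658), whereas its TPM was higher, at 223.51 in normal and 276.14 in mutant catkins. This is the highest count of the set, and its sides by count and by TPM are opposite by sign alone. Its log2 TPM ratio of 0.305 lay below the median of 0.335 over all tested entries. Its log2 scaled count ratio of -0.638 also lay below the median of 0.09, so relative to the medians both were on the same side.

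An entry with 3 transcripts had 13152 counts in normal and 8664 in mutant catkins, with lengths of 1930 and 3003 bases. Here the lower count and the greater length acted on TPM in the same direction. The scaled count ratio was 0.662 (interval 0.644 to 0.68) and TPM was 411.13 in normal and 205.71 in mutant catkins, 1.999-fold lower. An entry with 4 transcripts had 3564 and 6421 counts, with lengths of 1337 and 1891 bases. It was 1.811-fold higher by scaled count (interval 1.738 to 1.887) and 1.503-fold higher by TPM, at 163.86 TPM in normal and 246.36 TPM in mutant catkins. The highest TPM of the 58 lay well below the lowest of the 100 highest TPM values, which was 836.37 in normal and 826.99 in mutant catkins.

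The longest of the 58 was an entry with 3 transcripts, 4774 bases in normal and 8113 bases in mutant catkins. It had 4066 and 5882 counts, 1.454-fold higher after scaling (interval 1.397 to 1.514), and yet 50.11 and 50.77 TPM. Its length was 1.699-fold higher, more than its scaled count, while its TPM was 1.013-fold higher. Over all tested entries, TPM ratios exceeded scaled count ratios by a median of 0.26 on the log2 scale. The shortest in normal catkins was an entry with 12 transcripts, of 502.53 bases there and 882.7 bases in mutant catkins. It had 147.24 and 264.87 counts, and 20.09 and 23 TPM.

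An entry with 18 transcripts, the most of the 58, had 3238 counts in normal and 1679 in mutant catkins, just inside the 2-fold condition. Its length was 1344 bases in normal and 2400 bases in mutant catkins. TPM differed more than the counts, at 148.11 and 50.25, a 2.947-fold lower value, against a scaled count ratio of 0.521 (interval 0.491 to 0.553). This was the only entry of the 38 longer ones that was at least 2-fold lower by TPM.

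Some of the entries differed in length with no difference in reads beyond counting error. The counting interval of the scaled ratio held equality for 20 of the 58 entries (34.5%), lay above it for 25 (43.1%) and below it for 13 (22.4%). Over all tested entries it lay above equality for 44.6% and below it for 33.5%. With total-count scaling it held equality for 13 of the 58, lay above it for 38 and below it for 7, against 57.5% above and 22.2% below in the tested entries, so the side of many entries rests on the scaling. The TMM-scaled ratio itself was within 1.1-fold of equality for 11 of the 58, and the share over the tested entries was not computed. Among these 11 was an entry with 6 transcripts and 889.01 counts in normal and 883.01 in mutant catkins. Its length was 927.53 and 1363 bases, and its TPM was 60.59 and 47.87. Another, with 5 transcripts, had 1535 and 1506 counts, lengths of 1578 and 2660 bases, and 59.22 and 40.53 TPM. An entry with 9 transcripts had 1148 and 1110 counts and the opposite difference in length, at 1850 and 1267 bases, and its TPM was 37.51 in normal and 65.03 in mutant catkins.

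Counts and TPM gave different pictures of the same entries. On the log2 scale, the 38 longer entries had a median scaled count ratio of 0.29 and a median TPM ratio of -0.11. The 20 shorter entries had medians of 0.01 for count and 0.87 for TPM. Over all tested entries the medians were 0.09 for count and 0.34 for TPM, and the TPM ratio of an entry exceeded its count ratio by a median of 0.26. This gap had a median of -0.37 in the longer and 0.92 in the shorter entries. Relative to those medians, the longer entries stood at 0.20 by count and -0.44 by TPM, and the shorter entries at -0.08 by count and 0.54 by TPM. With total-count scaling the median count ratio of the tested entries was 0.32 in place of 0.09.

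By TMM-scaled count 37 of the 58 (63.8%) were higher in mutant catkins and 21 lower, against 55.5% higher in the tested entries. With total-count scaling 45 of the 58 (77.6%) and 68.4% of the tested entries were higher. By sign alone, 20 of the 58 (34.5%) were higher by one measure and lower by the other, against 14.7% of the tested entries. In 11 entries, all of them longer in mutant catkins, the scaled count was higher and TPM lower. This combination occurred in 21 of all tested entries (0.407%). In the other 9, all shorter in mutant catkins, the count was lower and TPM higher, which occurred in 14.3% of the tested entries. With both ratios set against the medians of the tested entries, 24 of the 58 (41.4%) lay on opposite sides, against 4.5% of the tested entries. The choice by length fixes most of the contrast relative to the medians, because TPM divides the count by the length. The counts by sign alone also carry a general shift of TPM ratios above scaled count ratios. Its median was 0.26 on the log2 scale over all tested entries.

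**Figure D3:**
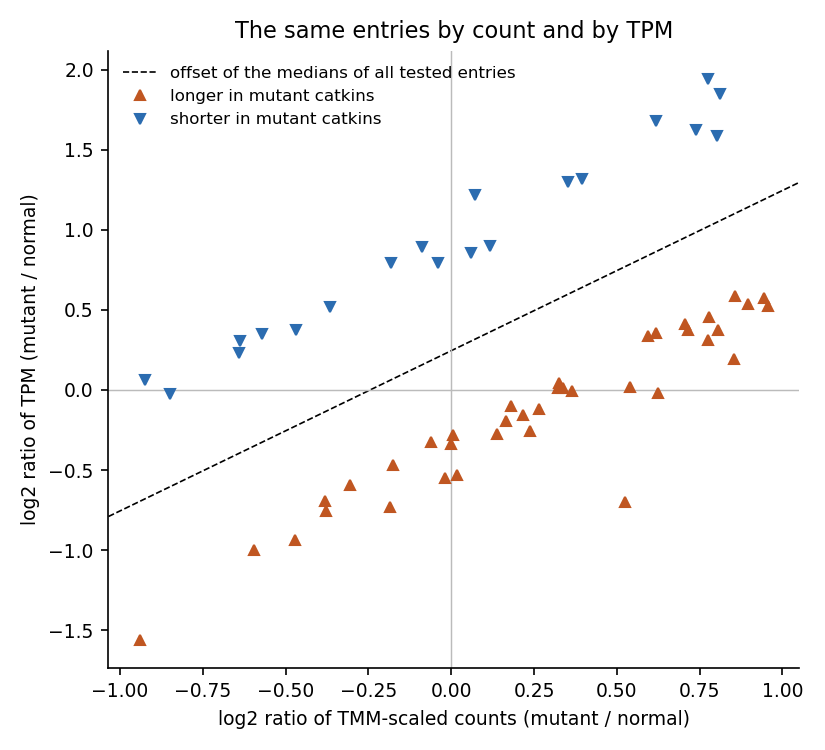
Log2 ratio (mutant over normal) of TMM-scaled counts on the horizontal axis and of TPM on the vertical axis for the 58 entries, with upward triangles for the 38 longer and downward triangles for the 20 shorter in mutant catkins and a dashed line for the offset between the medians of all tested entries. The longer entries lie below the line and the shorter ones above it, and the 20 entries in the upper left and lower right fields differ in sign between the measures.

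A 2-fold threshold on TPM would pick 9 of the 58. It was met by 8 of the 20 shorter entries as higher in mutant catkins, by 1 of the 38 longer entries as lower, and by no longer entry as higher. In the tested entries as a whole, TPM was at least 2-fold higher in 19.1% and at least 2-fold lower in 3.82%. Their median TPM ratio was 0.34 on the log2 scale, so a threshold around equality favours higher over lower TPM in mutant catkins. The numbers 8 and 1 carry this shift as well as the difference in length. Besides c56039.graph_c2 and c54131.graph_c0, the 8 include an entry with 3 transcripts of 3330 bases in normal and 1971 bases in mutant catkins, with 280.25 and 489 counts and 4.99 and 17.96 TPM. They also include an entry with 4 transcripts of 1346 and 809.64 bases, with 138 and 210.98 counts and 6.3 and 20.17 TPM. Their scaled counts differed 1.754-fold and 1.535-fold, and their TPM 3.599-fold and 3.202-fold.

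The 58 entries list more transcripts than the other tested entries. The choice named only a minimum of 2, but its length condition also favours entries with many transcripts. Over all tested entries the median absolute log2 length ratio was 0.0084 with 2 transcripts and 0.1207 with 10 or more. The 58 had a median of 6 transcripts, with a range from 2 to 18, against a median of 3 in the other 5103. Exactly 2 transcripts were listed by 4 of the 58 (6.9%) and by 45.1% of the others, and 6 or more by 30 of the 58 (51.7%) and by 17.2% of the others. The share of tested entries that passed the length threshold was 0.217% for those with 2 transcripts, 1.32% with 3, 2.17% with 4 or 5, 5.05% with 6 to 9 and 4.11% with 10 or more. The difference between 2 and more transcripts was also present among entries that had 500 counts or more in both. There the shares were 0.106% with 2 transcripts, 1.41% with 3, 1.18% with 4 or 5, 3.95% with 6 to 9 and 3.8% with 10 or more.

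Entries with few reads took a larger part of the set than of the other tested entries. Of the 58, 23 (39.7%) had under 200 counts in at least 1 library, against 24.5% of the other tested entries. The share past the length threshold was 2.75% among entries with 100 to 199 counts in the library with fewer. It was 1.14% at 200 to 499 counts, 1.17% at 500 to 999, 1.37% at 1000 to 4999, and 1.43%, or 2 of 140 entries, at 5000 or more. Among entries with 6 or more transcripts the shares in the same order of counts were 6.67%, 4.76%, 4.37%, 3.37% and 3.7%. At least 1000 counts in each library were found for 13 of the 58 (22.4%) and for 19.7% of the tested entries. The deposited tables give no error for a length, and the part of sampling in the shares at low counts was not tested. Counts with a fraction, which arise where reads are shared between entries, were found in 42 of the 58 (72.4%) and in 70.4% of the others. They do not gauge how reads were divided among the transcripts of 1 entry.

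**Figure D4:**
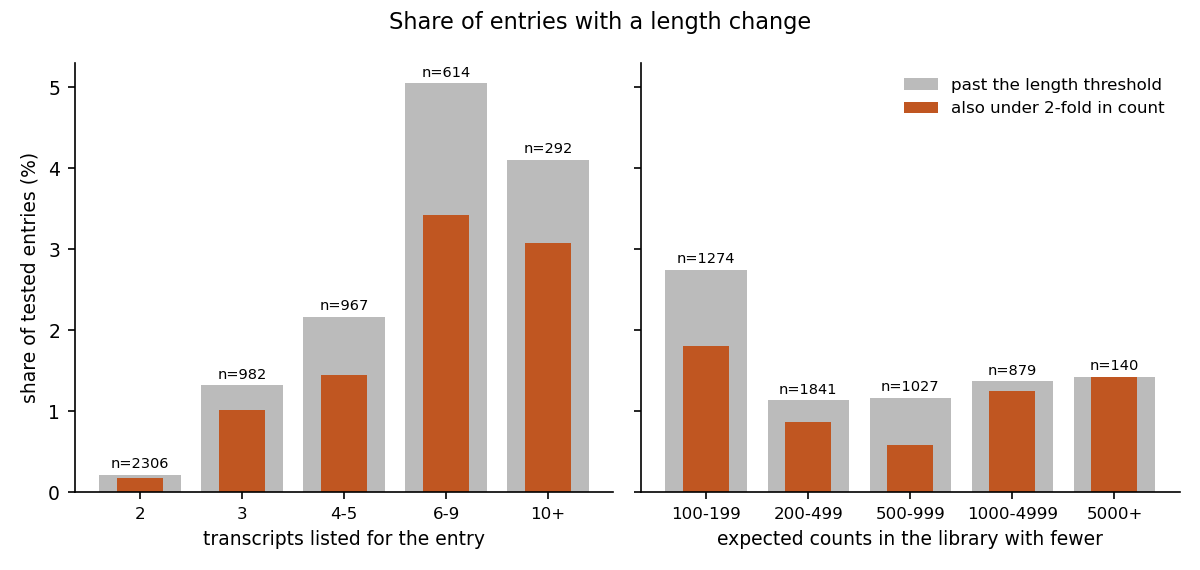
Share of tested entries in percent, by number of transcripts listed (left) and by expected counts in the library with fewer (right), with grey bars for entries past the 1.41-fold length threshold, narrow bars for those that also differed less than 2-fold in count, and n for the entries in each class. The grey bars run from 0.217% at 2 transcripts to 5.05% at 6 to 9 transcripts, and from 2.75% at 100 to 199 counts to between 1.14% and 1.43% above.

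Entries with 2 transcripts are the simplest to read, and all 4 of these were longer in mutant catkins. Their lengths were 965.02 and 1573 bases, 2269 and 3280 bases, 1218 and 1809 bases, and 984.07 and 1392 bases, in normal and mutant catkins respectively. Their counts ran from 132 to 362 in normal and from 161 to 319 in mutant catkins. In the first 2 of them the length in mutant catkins was a whole number at the 2 decimals deposited, as it would be if the longer transcript alone were used there. A weighted average can also fall on a whole number, and of the tested entries 4.01% had a whole length in normal and 3.93% in mutant catkins, against 1 and 2 of the 58.

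Where the longer transcript alone was used in 1 library, its length is known and gives a bound for the other library. No entry in the tables is shorter than 201 bases. The shares below take that to hold for the unlisted transcript lengths too, and take length as weighted by abundance. The shorter transcript then made up at least 44.3% of the molecules of the first entry in normal catkins, and at least 32.8% of those of the second. The first had 137 counts in normal and 161 in mutant catkins, and the second 362 and 319. The reverse was seen in an entry with 3 transcripts, of 3525 bases exactly in normal and 2164 bases in mutant catkins, with 187 and 175 counts. On the same reading, its other transcripts made up at least 40.9% of its molecules in mutant catkins. No entry of the 58 had a whole length in both libraries, and of the tested entries 24 (0.465%) had one.

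The first part of an identifier numbers a component, and entries that share it may be related. Of the 58, 12 (20.7%) share their component with another entry, against 18.7% of the other tested entries. For 8 of them the component held further entries that had 100 counts or more over both libraries, 9 entries in all. Of these neighbours, 8 list 2 or more transcripts, and their lengths differed by at most 1.066-fold between the libraries, as against less than 1.1-fold in 84.1% of the tested entries. Beside the entry with the most counts, which went from 4589 to 2880 bases, the neighbour had lengths of 2854 bases in both libraries and 2353 and 2956 counts. The lengths of this neighbour were close to the length of that entry in mutant catkins. How often a neighbour matches in this way was not tested. Beside an entry with 10 transcripts that went from 2188 to 3753 bases, the neighbours had 4189 and 4203 bases, and 1885 and 2009 bases.

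The limits of the set cut through a continuous range of values. Just inside the length threshold lay entries with differences of 1.4102-fold, 1.4125-fold and 1.4128-fold, and just outside it lay entries with 1.4069-fold, 1.3998-fold and 1.3988-fold. Just inside the limit on counts were differences of 1.933-fold, 1.929-fold and 1.914-fold, and just outside it 2.008-fold, 2.096-fold and 2.121-fold. The last 3 had lengths of 2249 and 1526 bases, 3031 and 4714 bases, and 1588 and 1019 bases.

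The 58 entries are a small part of the catkin transcriptome. Their part of all counts was 0.284% in normal and 0.315% in mutant catkins, and their part of all TPM 0.197% and 0.195%. The libraries held 23089247 and 19624934 counts, and the counts of the 58 ran from 106 to 17420 in normal and from 115.04 to 11137 in mutant catkins. Their median abundance was 11.88 TPM in normal and 16.6 TPM in mutant catkins, against 15.79 and 20.67 TPM in the other tested entries.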

How the data were processed

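RNA from catkins was sequenced in 1 normal and 1 mutant library. The submitters' processing notes list the aligner HISAT and the abundance estimator RSEM, with versions, roles and reference not given in the sources used here. Each deposited table holds, per the file headers, expected counts (not normalized), TPM, FPKM, and a length and effective length in bases, which differed by 77.86 bases in normal and by 84.37 bases in mutant catkins. For ratios, expected counts were rounded, scaled by TMM (edgeR 4.0.16, R 4.3.3, entries with at least 20 counts, factors 0.9243 and 1.0819) and given a pseudocount of 0.5. Exact conditional (Clopper-Pearson) 95% intervals (scipy 1.17.1) treat estimated counts as independent reads and cover counting error only. A length was called whole within 0.005 bases. The rule and the interval were tested on simulated data with counting error only and lengths free of error. Errors of estimated length were thus not covered. No p-value was computed. The members and lists were chosen with earlier results of these data known. Identifiers were printed for the 2 members with the highest and the 2 with the lowest length ratio. Alternatives were other scalings, thresholds, count minimums, effective length and FPKM.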

Additional observations from a re-analysis of the deposited data

How the results depend on the processing

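More entries were longer than shorter in mutant catkins under every setting run, but the number of entries followed the thresholds. A count ratio under 1.5 left 34 entries (23 longer, 11 shorter), a length ratio of 1.3 gave 109 (72 and 37) and one of 1.6 gave 16 (10 and 6). A minimum of 200 counts gave 35 (22 and 13), one of 500 counts 19 (14 and 5), and no minimum other than above 0 gave 171 (100 and 71). These follow from how many entries each setting admits. Other count scalings, a count ratio under 3, effective length, a minimum of 50 counts, keeping entries of high TPM and a length ratio of the square root of 2 (chosen after seeing the data) gave between 49 and 81 entries. Total-count scaling gave 49 entries, of which 47 were among the 58. With TPM in place of counts there were 59 entries, of which 49 were among the 58. The number of opposite direction by count and TPM ran from 20 to 24, that with a higher count from 36 to 45, and FPKM put 32 entries higher in place of 35 by TPM. The count ratio of c53411.graph_c0 was 0.75 on the log2 scale with total-count scaling, against 0.53. That of c56039.graph_c2 was 1.002 with total-count scaling, against 0.775, which puts this entry outside the 2-fold limit on counts. No paired analysis was possible because there was 1 library of each kind, and none could be left out. The error of a length at low counts was not measured.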
